A study of Mus musculus with 6 samples.

Results

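The 38 genes described here encode enzymes and membrane proteins of the lysosome, the acidic compartment in which cells take apart proteins, glycans and lipids, together with transcription factors that switch such genes on. They were chosen by name, with earlier results of these data known. All 38 were measured among the 19938 genes of the array, each at the probe set linked to that gene alone with the highest mean signal. Lysosomal hydrolases are made at the endoplasmic reticulum, mostly tagged with mannose 6-phosphate and carried to the lysosome by receptors for that tag, and they work at the low pH set by a proton pump in the membrane. Tfeb, Tfe3 and Mitf belong to the MiT/TFE family of transcription factors, which bind E-box sequences near the start of many lysosomal genes and are held in the cytoplasm while nutrients keep the kinase mTORC1 active. Macrophages and other phagocytes are rich in lysosomal proteins, and in the thymus cathepsins of the epithelium and of dendritic cells prepare the peptides on which thymocytes are selected.

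Expression was profiled in 3 mouse populations with 2 arrays each. HSC samples came from bone marrow that expressed a NUP98-HOXB4 fusion and was expanded in culture with IL6 and SCF. The ProT samples were cells with the same fusion that had been cultured with DLL4, the Notch1 ligand, and IL7. The DP samples were double positive thymocytes (CD4 and CD8 on the same cell) that arose from ProT cells injected into a Rag2-/- mouse. All groups therefore carry NUP98-HOXB4, and DP cells differ from the others also by growth in an animal. Mice without Rag2 keep their own thymic stroma, myeloid cells and early thymocytes. How DP cells were separated from host cells, and the strain, age and number of animals, are unstated in the labels.

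Signals are log2 values normalized by RMA, the authors' summary per probe set, with array medians of 6.73 to 6.91. The markers went with the labels in part. All 8 stem and progenitor markers were lower in DP than in HSC (18.8% of all genes). All 6 measured early T cell markers were higher in ProT than in HSC (7.85%), and all 8 double positive thymocyte markers were higher in DP than in ProT (14.5%). Between ProT and HSC, however, 4 of the 8 stem and progenitor markers fell and 1, Kit, rose. Cd34 stayed at 12.62 and 12.77 in ProT, against 12.77 and 12.74 in HSC. Of the 6 early T cell markers, 2 rose and 3 fell in DP against ProT. The 10 granulocyte markers averaged 11.48 and 11.60 in the HSC arrays, 8.04 and 7.19 in the ProT arrays and 7.38 and 7.26 in the DP arrays, so the HSC samples held many transcripts of the granulocyte lineage. Replicate arrays of the 38 genes differed by a median of 0.19 in HSC, 0.15 in ProT and 0.07 in DP, and the widest gaps were those of Cd63 in HSC (1.39) and Ctse in ProT (0.98). With 2 arrays per population, a lack of overlap between populations is common. It held for 52.1% of all genes in ProT against HSC, 69% in DP against ProT and 67.9% in DP against HSC. Nothing in the labels shows separate cultures or animals behind the replicates, so p-values cover only the spread between these arrays, and in such bulk samples fewer cells of a type and less RNA per cell cannot be told apart.

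In DP against HSC 22 of the 38 lysosomal genes were lower and 6 higher. Averaged over the 38 genes, the signal was 10.57 and 10.64 in the HSC arrays, 10.24 and 10.11 in the ProT arrays and 9.96 and 9.91 in the DP arrays. Of the 38, 24 had their highest mean in HSC, 6 in ProT and 8 in DP, whereas over all genes HSC had the highest mean for 6378, ProT for 5055 and DP for 8505. The counts over all genes include many dim genes, while none of the 38 is dim in all arrays, and no such count was made for brighter genes alone. The acid lipase gene Lipa and the protease gene Ctsl were higher in DP than in HSC, and the glycosidase genes Gla, Gusb, Hexa and Gaa were lower. The plot of signals by array shows each gene at its own level, and levels of different genes are not compared because each rests on its own probes.

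**Figure D1:**
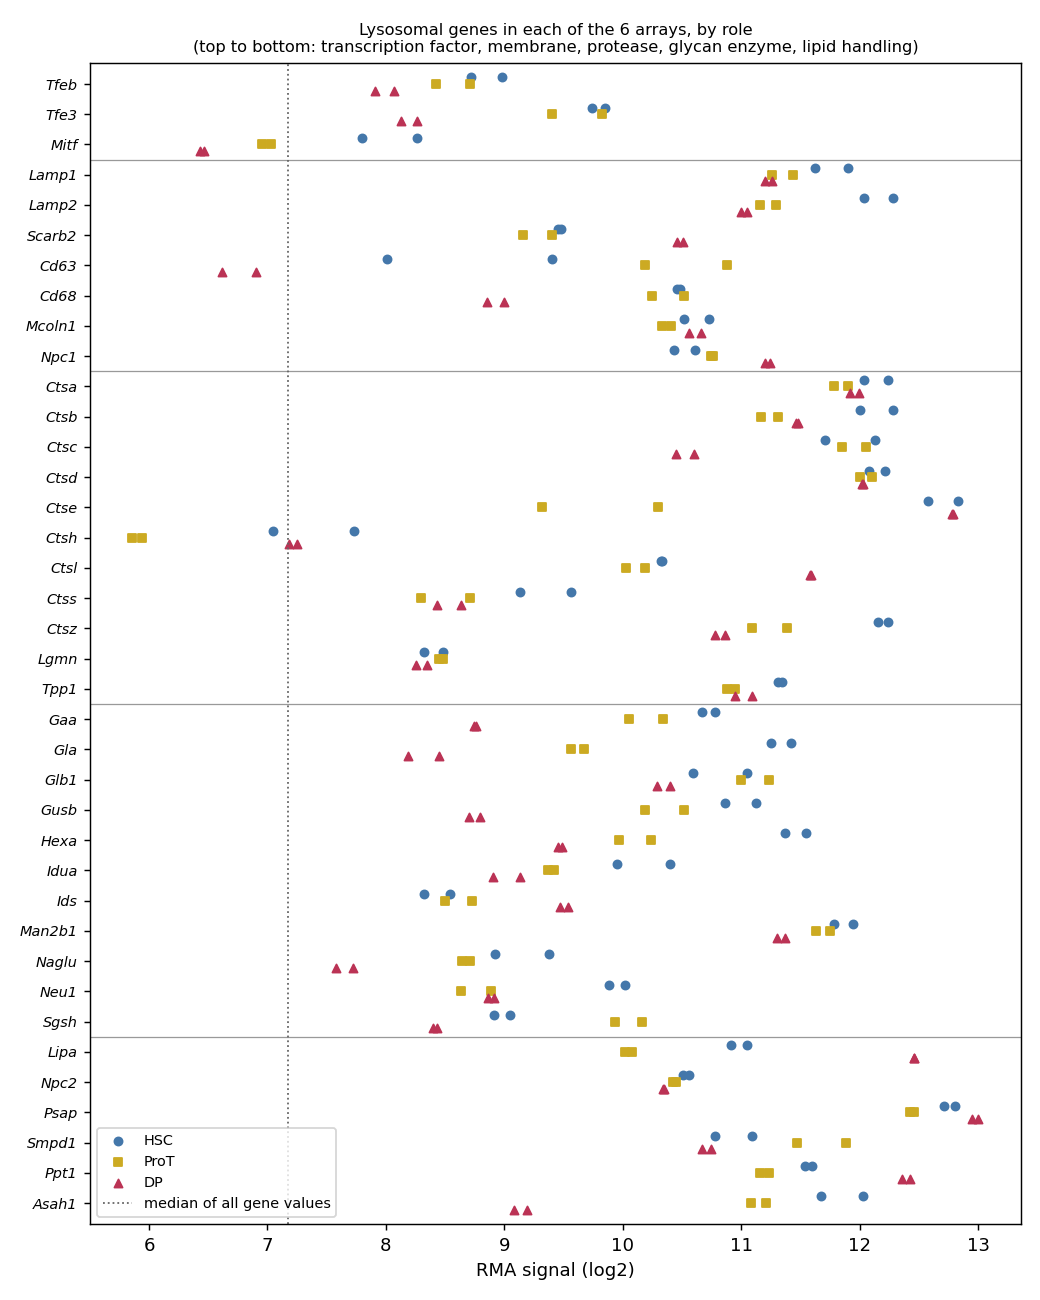
RMA signal (log2, x axis) of the 38 lysosomal genes in each of the 6 arrays, grouped by role down the page. Circles are HSC, squares ProT and triangles DP arrays, 2 of each, and the dotted line is the median of all gene values, 7.17. The DP arrays of Gla lie at 8.45 and 8.19, far left of its HSC arrays at 11.25 and 11.42, and those of Lipa, both at 12.46, lie right of its HSC arrays at 11.05 and 10.91.

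Between ProT and HSC, 2 of the 38 genes rose, 18 fell and 18 did not pass the test, with a median log2 change of -0.35. Of all 19938 genes 14.7% were called in this comparison (7.85% higher, 6.9% lower) and the median change was -0.01. All 38 lysosomal genes were bright enough to reach the median of all gene values, 7.17, in at least 2 arrays. Of the 10774 genes that did so, 23.7% were called, 12.6% higher and 11.1% lower. Calls required an adjusted p under 0.05 (limma, Benjamini-Hochberg over all genes). The calls of Lamp2, Ctsb, Ctse, Ctsh, Ctsz, Gla, Hexa, Neu1, Lipa, Mitf and Sgsh held when any single array was left out, and those of Ctss, Tpp1, Gaa, Gusb, Idua, Psap, Ppt1, Asah1 and Smpd1 were lost without at least 1 of the arrays. The number of lower genes came to 10 without DP replicate 1 or DP replicate 2, which enter this comparison only through the estimate of the spread, and to 11 without ProT replicate 2, and the number of higher genes to 1 without any of these 3 arrays.

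Between DP and ProT, 9 of the 38 rose, 17 fell and 12 did not pass, with a median log2 change of -0.18 (-0.07 with every array centred on its own median). Among all genes 32.6% were called (14.5% higher, 18.1% lower), and among those bright in at least 2 arrays 52.2% (21.2% higher, 31% lower). The 9 rises were those of Scarb2, Ctse, Ctsl, Ids, Lipa, Psap and Ppt1, which held without any single array, and of Npc1 and Ctsh, which did not. Of the falls, those of Ctsz, Glb1, Hexa, Man2b1, Naglu, Smpd1, Tfeb and Mitf were likewise lost without at least 1 of the arrays. The number of lower genes came to 10 without DP replicate 1 and 9 without DP replicate 2. With every array centred on its own median, all genes had a median change of 0.13, against 0.02 as deposited, and 4522 were higher and 2987 lower, against 2899 and 3607 as deposited. With that centring 10 of the 38 genes were higher and 13 lower.

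Between DP and HSC, 6 of the 38 rose (Scarb2, Npc1, Ctsl, Ids, Lipa and Ppt1), 22 fell and 10 did not pass, with a median log2 change of -0.55. The shares of all genes were 34.9% called, 16% higher and 18.8% lower, and of the genes bright in at least 2 arrays 56.3% called, 23.8% higher and 32.5% lower. All 6 rises and 14 of the 22 falls held without any single array, and the falls of Lamp1, Cd63, Ctsb, Ctss, Tpp1, Man2b1, Sgsh and Tfeb did not. Without DP replicate 2 there were 14 falls. The 3 comparisons share arrays, so they are not independent of each other, and their values stand side by side in the plot of changes.

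**Figure D2:**
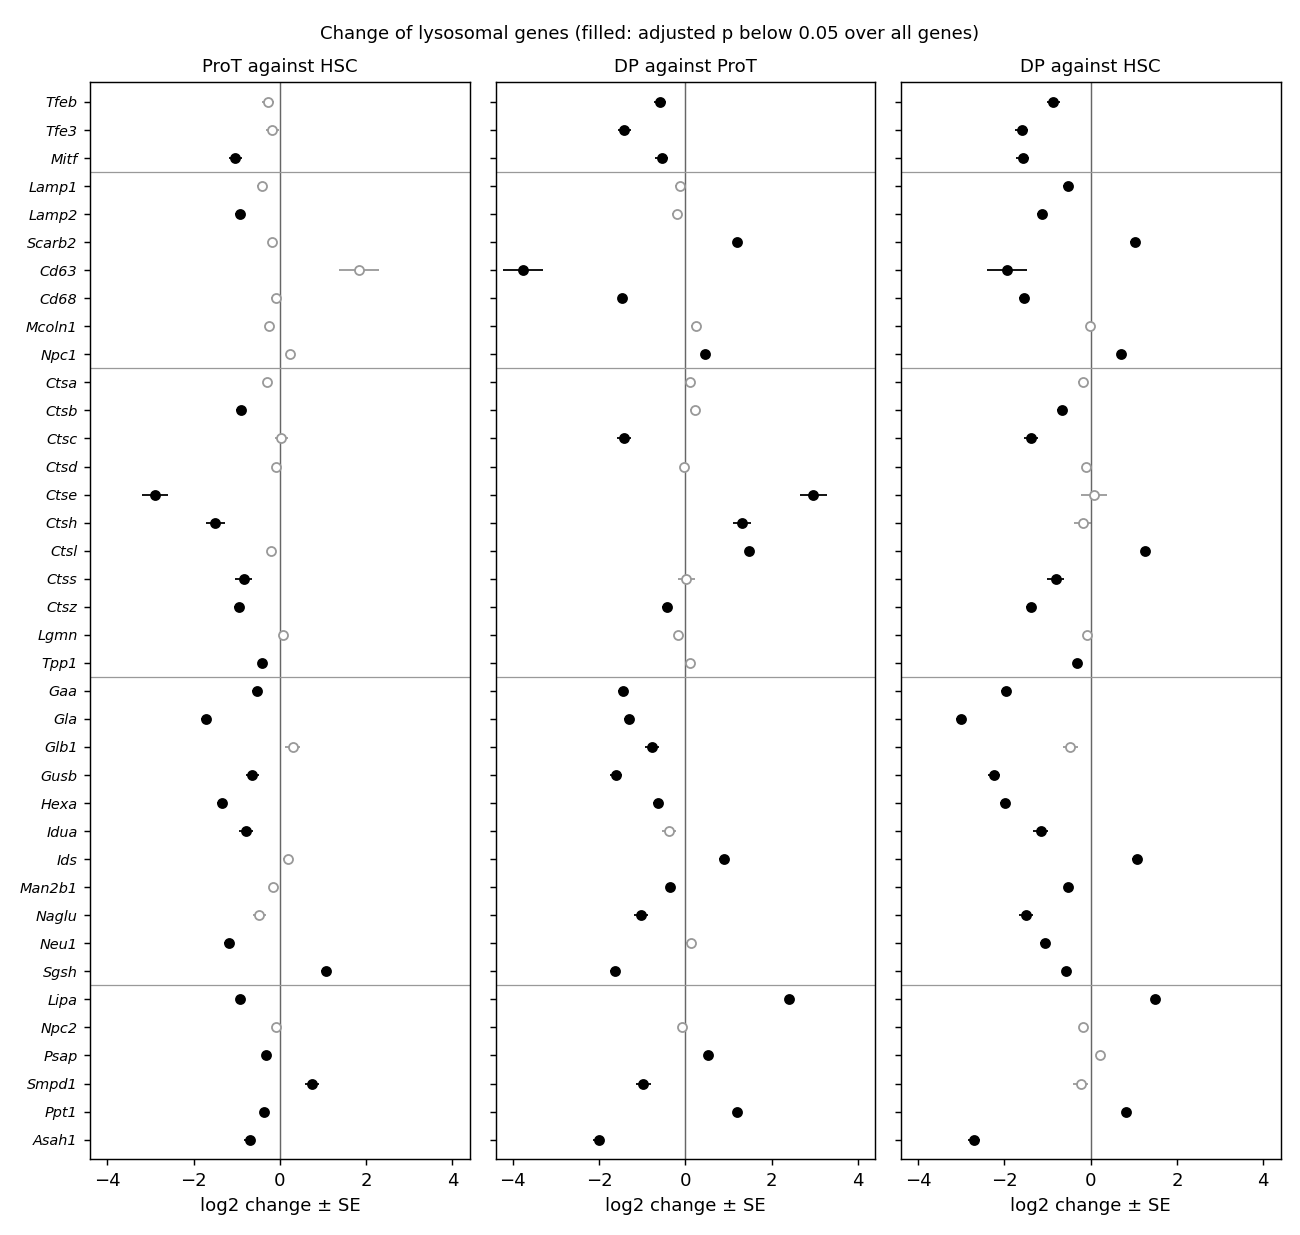
Log2 change with its standard error from limma (x axis) of the 38 lysosomal genes in ProT against HSC (left), DP against ProT (middle) and DP against HSC (right), ordered by role down the page. Filled points passed an adjusted p of 0.05 over all genes: 20 genes on the left, 26 in the middle and 28 on the right.

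The transcription factors that act on lysosomal genes were all lower in DP than in HSC. Tfe3 had signals of 9.74 and 9.85 in HSC, 9.82 and 9.40 in ProT, and 8.26 and 8.13 in DP. Its DP arrays lay below the other 4, whose HSC and ProT values overlapped. The log2 change was -1.42 ± 0.15 in DP against ProT (adjusted p = 0.00105 from limma) and -0.18 ± 0.15 in ProT against HSC, which did not pass. Tfeb, a master regulator of lysosome formation in other cell types, read 8.72 and 8.98 in HSC, 8.71 and 8.42 in ProT, and 8.07 and 7.91 in DP. Its log2 change was -0.86 ± 0.14 in DP against HSC (adjusted p = 0.00489 from limma) and -0.58 ± 0.14 in DP against ProT. Mitf, which also directs pigment cells, mast cells and osteoclasts, showed 7.80 and 8.26 in HSC, 6.95 and 7.03 in ProT, and 6.46 and 6.43 in DP, so no arrays of different populations overlapped. Its change was -1.04 ± 0.15 in ProT against HSC and -1.58 ± 0.15 in DP against HSC. The ProT and DP means of Mitf lie below 7.17, where signals were not shown to exceed background. A second, dimmer Mitf probe set stayed between 3.99 and 4.11 in all 6 arrays. The DP against ProT calls of Tfeb and Mitf were lost with median centring (adjusted p = 0.0544 and 0.0835), and that of Mitf with the mean of its probe sets (adjusted p = 0.109).

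Tfec, the remaining MiT/TFE family gene and a member of the list of nutrient sensing genes, moved far more than these 3. It stood at 11.87 and 12.62 in HSC, 6.52 and 5.90 in ProT and 6.56 and 6.32 in DP. It fell at least 65.5-fold in ProT against HSC (log2 change -6.03 ± 0.30, adjusted p = 0.00012 from limma) and did not change beyond the test in DP against ProT (0.23 ± 0.30). Tfec is known from macrophages. Among 12 measured macrophage and monocyte markers, Csf1r, the receptor for M-CSF, was at 10.68 and 11.03 in HSC, 6.84 and 6.30 in ProT and 7.28 and 7.16 in DP. Adgre1, a surface protein of macrophages, went the other way in ProT against HSC (1.43 ± 0.31, adjusted p = 0.0332 from limma). Of the 12 markers 1 rose and 3 fell there, beside 7.85% and 6.9% of all genes. The whole list averaged 6.73 and 6.96, then 6.35 and 6.18, then 6.61 and 6.60 in the same order, with 9, 11 and 8 of the 12 markers below 7.17. The part of such cells in the Tfec signal was not tested.

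Promoter sequences are shown for genes that differ in E-box content and in response. The MiT/TFE factors bind the letters TCACGTG around the E-box core CACGTG. Windows of 250 bases before to 50 after the start, from RefSeq on GRCm38.p6, were given for 33 of the 38 genes, in 41 windows. In these, TCACGTG on either strand was present for 10 genes (30.3%): Ctsa, Ctsd, Gaa, Gla, Glb1, Lamp1, Lgmn, Mcoln1, Naglu and Sgsh. Of all 27025 genes with windows 4.29% held it. The core CACGTG, which lies inside TCACGTG, was present for these 10 genes and Ctsl (33.3%), against 8.09% of all genes. The related TCATGTG was present for 6 genes (18.2%), against 4.31% of all genes. The longest form searched, which adds fixed bases on both sides of TCACGTG, was present for 0 of the 33 genes, against 0.37% of all genes. That form is so rare over all genes that its absence from 33 genes says little. Capitals mark each CACGTG core, with the flanking base that completes TCACGTG or its reverse complement, in the sequences that follow, given 5′ to 3′ along the gene.
Lamp1, chr8:13158911-13159210, + strand: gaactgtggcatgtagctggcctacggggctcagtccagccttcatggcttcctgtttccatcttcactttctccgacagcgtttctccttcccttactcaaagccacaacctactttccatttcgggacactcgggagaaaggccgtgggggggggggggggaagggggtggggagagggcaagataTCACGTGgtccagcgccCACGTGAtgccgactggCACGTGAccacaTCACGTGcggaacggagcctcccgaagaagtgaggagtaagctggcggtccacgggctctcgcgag
Mcoln1, chr8:3500269-3500568, + strand: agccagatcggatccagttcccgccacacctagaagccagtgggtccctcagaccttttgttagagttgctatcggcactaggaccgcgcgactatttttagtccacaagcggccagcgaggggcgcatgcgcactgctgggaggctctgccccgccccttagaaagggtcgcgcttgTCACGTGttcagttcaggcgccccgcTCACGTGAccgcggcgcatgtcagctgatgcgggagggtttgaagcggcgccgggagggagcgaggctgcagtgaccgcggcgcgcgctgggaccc
Ctsa, chr2:164833523-164833822, + strand: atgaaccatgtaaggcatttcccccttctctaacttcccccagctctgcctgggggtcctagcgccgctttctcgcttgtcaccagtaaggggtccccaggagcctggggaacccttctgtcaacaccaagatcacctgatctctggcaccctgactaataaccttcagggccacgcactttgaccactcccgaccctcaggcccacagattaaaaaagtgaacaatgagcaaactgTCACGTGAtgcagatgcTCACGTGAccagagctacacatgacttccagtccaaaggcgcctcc
Gla, chrX:134600956-134601255, - strand: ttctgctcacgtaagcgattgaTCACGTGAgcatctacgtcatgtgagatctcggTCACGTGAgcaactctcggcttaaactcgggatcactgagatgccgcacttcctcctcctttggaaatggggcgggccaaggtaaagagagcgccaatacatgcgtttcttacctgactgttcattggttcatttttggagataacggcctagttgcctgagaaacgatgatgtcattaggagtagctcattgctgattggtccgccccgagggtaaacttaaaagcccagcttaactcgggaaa
Ctsl, chr13:64370471-64370770, - strand: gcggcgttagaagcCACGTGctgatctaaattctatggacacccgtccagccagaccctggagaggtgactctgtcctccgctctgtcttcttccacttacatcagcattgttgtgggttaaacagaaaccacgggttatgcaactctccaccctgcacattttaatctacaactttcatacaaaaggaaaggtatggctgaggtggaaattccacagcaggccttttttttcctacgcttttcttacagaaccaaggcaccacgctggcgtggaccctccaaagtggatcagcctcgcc
Lipa, chr19:34527425-34527724, - strand: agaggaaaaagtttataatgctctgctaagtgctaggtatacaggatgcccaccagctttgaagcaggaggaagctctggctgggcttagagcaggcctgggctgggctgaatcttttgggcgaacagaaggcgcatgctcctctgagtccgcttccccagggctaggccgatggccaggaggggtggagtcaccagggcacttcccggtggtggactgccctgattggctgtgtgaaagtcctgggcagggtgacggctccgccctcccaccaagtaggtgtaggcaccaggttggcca
Where a gene had several windows, that with the most CACGTG cores is printed. In the printed windows Lamp1 holds 4 cores, centred at -58, -42, -25 and -12 from the gene start, and Mcoln1 and Gla hold 2 each, at -68 and -42 and at -224 and -191. Ctsa has 1 core on each side of the start, at -9 and 8, Ctsl has 1 at the far end of the window, at -233, and Lipa has 0.

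**Figure D3:**
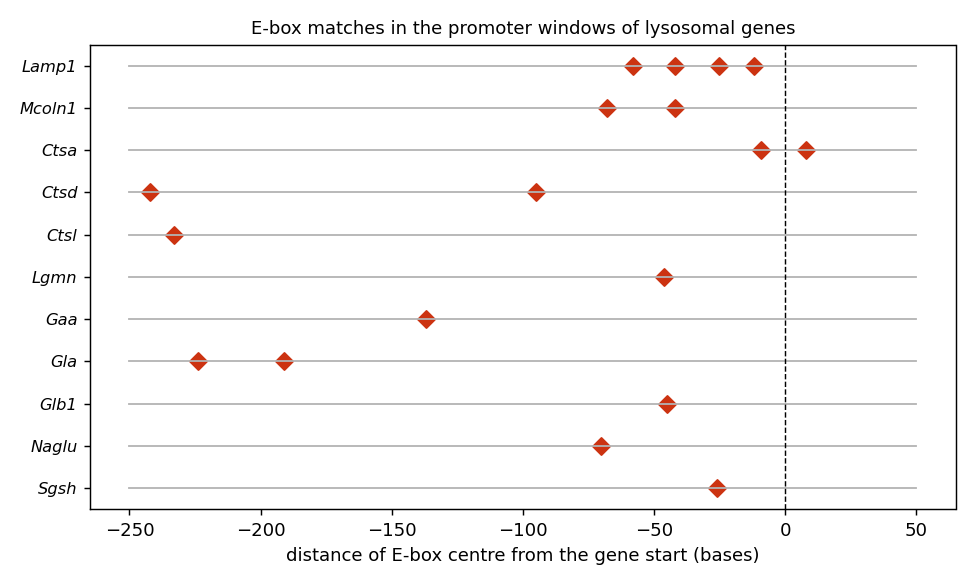
Position of each CACGTG match (diamonds), as distance of its centre from the annotated gene start in bases (x axis), in the promoter windows of the 11 lysosomal genes that hold it. The dashed line is the gene start, and the grey lines span the window, 250 bases before to 50 after it. In Lamp1, Mcoln1, Ctsa, Lgmn, Glb1, Naglu and Sgsh the matches lie between -70 and 8.

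Genes with TCACGTG in the window did not move as a block. In DP against ProT 5 of these 10 fell, 0 rose and 5 did not pass (median log2 change -0.47), and of the 23 with a window but without the letters 11 fell, 6 rose and 6 did not pass (median -0.36). In DP against HSC the counts were 5 lower, 0 higher and 5 not passed (median -0.50) with the letters, and 15 lower, 5 higher and 3 not passed (median -0.86) without them. Of all genes 18.1% fell and 14.5% rose in DP against ProT, and 18.8% and 16% in DP against HSC. Of the bright genes 31% fell and 21.2% rose in DP against ProT, and 32.5% and 23.8% in DP against HSC. Gla, whose window is printed above, fell by 3.01 on the log2 scale in DP against HSC, while Mcoln1 (-0.01 ± 0.10), Ctsd (-0.12 ± 0.08), Ctsa (-0.19 ± 0.10) and Lgmn (-0.10 ± 0.09) did not pass. The difference between the genes with and without the letters was not tested.

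Of the 7 genes for lysosomal membrane proteins, 0 rose and 1 fell in ProT against HSC, 2 rose and 2 fell in DP against ProT, and 2 rose and 4 fell in DP against HSC. These are 14.3%, 57.1% and 85.7% called, beside 14.7%, 32.6% and 34.9% of all genes and 23.7%, 52.2% and 56.3% of the bright genes, and the first 2 shares lie near or below those of the bright genes. Lamp1 and Lamp2 encode the abundant glycoproteins that line the membrane. Lamp2, also a receptor for proteins taken up directly by the lysosome, had 12.04 and 12.28 in HSC, 11.16 and 11.29 in ProT, and 11 and 11.05 in DP. The HSC arrays lay above all others, and the change was -0.93 ± 0.10 in ProT against HSC (adjusted p = 0.00289 from limma) and -1.13 ± 0.10 in DP against HSC. Lamp1, with 11.62 and 11.90 in HSC, 11.44 and 11.26 in ProT and 11.20 and 11.26 in DP, moved less: -0.41 ± 0.12 in ProT against HSC, not called, and -0.53 ± 0.12 in DP against HSC (adjusted p = 0.0177).

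Scarb2, the receptor that carries glucocerebrosidase to the lysosome, went the other way. Its signals were 9.48 and 9.45 in HSC, 9.40 and 9.16 in ProT, and 10.51 and 10.46 in DP. DP arrays lay above all others, 2.30-fold above ProT (log2 change 1.20 ± 0.10, adjusted p = 0.000441 from limma) and 2.03-fold above HSC. Npc1, which moves cholesterol out of the lysosome, read 10.43 and 10.61 in HSC, 10.74 and 10.76 in ProT, and 11.24 and 11.20 in DP. It rose by 0.70 ± 0.09 in DP against HSC (adjusted p = 0.00163), and the step in DP against ProT was 0.47 ± 0.09. Its lumenal partner Npc2 stayed between 10.34 and 10.56 in all arrays and passed in no comparison. Mcoln1, the calcium channel of the lysosome, likewise lay between 10.33 and 10.73 and did not pass.

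Cd63 and Cd68, membrane glycoproteins abundant in granules and in phagocytes, were lowest in DP. Cd63 had 9.40 and 8.01 in HSC, 10.88 and 10.19 in ProT, and 6.62 and 6.90 in DP. The populations did not overlap, but the HSC arrays were 1.39 apart. It fell at least 13.7-fold in DP against ProT (log2 change -3.77 ± 0.47, adjusted p = 0.00199 from limma), and its 1.83 ± 0.47 in ProT against HSC missed the threshold (adjusted p = 0.0542). That value passed with the dim genes left out (adjusted p = 0.0267), with a replicate block (0.0383) or with a trended prior (0.0499), and without HSC replicate 1, where the change was 2.52 (0.0044). The 8 mast cell markers averaged 6.89 and 6.68 in HSC, 8.26 and 8.36 in ProT and 5.80 and 5.80 in DP. Of the 8, 5 rose and 1 fell in ProT against HSC, beside 7.85% and 6.9% of all genes. In DP against ProT 0 rose and 6 fell, beside 14.5% and 18.1% of all genes. Mcpt4, a mast cell protease, was at 11.28 and 11.32 in ProT, against 4.85 and 5.09 in HSC. The fall was that of Hdc, which makes histamine, at 7.09 and 6.72 in ProT, against 10.18 and 9.70 in HSC. Tpsab1, a tryptase gene, stayed below 7.17 in every population. The part of mast cell transcripts in the Cd63 signal was not tested. Cd68 changed little in ProT against HSC (-0.09 ± 0.11) and was 2.75-fold lower in DP against ProT, a log2 change of -1.46 ± 0.11 (adjusted p = 0.000346).

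Among the 11 protease genes, 0 rose and 6 fell in ProT against HSC, 3 rose and 2 fell in DP against ProT, and 1 rose and 5 fell in DP against HSC. The shares called were 54.5%, 45.5% and 54.5%, beside 14.7%, 32.6% and 34.9% of all genes and 23.7%, 52.2% and 56.3% of the bright genes. In DP against ProT and in DP against HSC they lie below those of the bright genes. Ctse, an aspartic protease of endosomes, had the widest swing. Its arrays read 12.58 and 12.83 in HSC, 10.30 and 9.32 in ProT, and 12.79 and 12.78 in DP. ProT lay apart below both other populations, which overlapped. It fell 7.42-fold in ProT against HSC (log2 change -2.89 ± 0.30, adjusted p = 0.00223 from limma) and rose 7.84-fold in DP against ProT (2.97 ± 0.30, adjusted p = 0.000978). Ctsh, an aminopeptidase, was also lowest in ProT, at dimmer signals, with 7.05 and 7.73 in HSC, 5.94 and 5.86 in ProT, and 7.18 and 7.25 in DP. Its change was -1.50 ± 0.21 in ProT against HSC and 1.32 ± 0.21 in DP against ProT, with a ProT mean below 7.17.

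Ctsl, a cysteine protease that in thymic epithelium shapes the peptides shown to CD4 T cells, was highest in the thymocytes. It stood at 10.33 and 10.32 in HSC, 10.19 and 10.03 in ProT, and 11.59 and 11.58 in DP. No DP array came near the others, and the rise was 2.78-fold in DP against ProT (log2 change 1.47 ± 0.08, adjusted p = 0.000116 from limma) and 2.39-fold in DP against HSC. Ctsb, Ctsz and Ctss, also cysteine cathepsins, were lower in DP than in HSC. Ctsb was at 12.00 and 12.28 in HSC, 11.31 and 11.17 in ProT, and 11.48 and 11.46 in DP, a change of -0.90 ± 0.11 in ProT against HSC and -0.67 ± 0.11 in DP against HSC. Ctsz, a carboxypeptidase, was lower at each step (12.15 and 12.24, then 11.39 and 11.09, then 10.86 and 10.78), by 2.60-fold in DP against HSC. Ctss, the protease that trims the invariant chain in antigen presenting cells, fell in ProT against HSC (-0.84 ± 0.20, adjusted p = 0.041) and not beyond that in DP against ProT (0.02 ± 0.20).

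Ctsc, which activates the serine proteases of granules, kept its level in ProT and was lower in DP. Its signals were 11.71 and 12.13 in HSC, 11.85 and 12.05 in ProT, and 10.60 and 10.45 in DP. HSC and ProT overlapped, and DP lay 2.68-fold below ProT (log2 change -1.42 ± 0.16, adjusted p = 0.00134 from limma). Tpp1, a tripeptidyl peptidase whose loss causes a storage disease of neurons, was slightly lower in ProT against HSC (-0.41 ± 0.08, adjusted p = 0.0233). The remaining 3 proteases, Ctsa, Ctsd and Lgmn, passed in no comparison. Ctsd, the main aspartic protease of the lysosome, kept within 12.00 to 12.21 in all 6 arrays, Ctsa, which also protects sialidase and galactosidase, within 11.78 to 12.24, and Lgmn, an asparaginyl endopeptidase, within 8.25 to 8.48.

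Most of the glycan-degrading enzymes were lower in DP. Of 11, 1 rose and 6 fell in ProT against HSC, 1 rose and 8 fell in DP against ProT, and 1 rose and 9 fell in DP against HSC, where the median log2 change was -1.16. The shares called were 63.6%, 81.8% and 90.9%, beside 14.7%, 32.6% and 34.9% of all genes and 23.7%, 52.2% and 56.3% of the bright genes. Gla, the galactosidase lost in Fabry disease, had 11.25 and 11.42 in HSC, 9.56 and 9.67 in ProT, and 8.45 and 8.19 in DP. Every step separated the arrays: -1.72 ± 0.12 in ProT against HSC, -1.30 ± 0.12 in DP against ProT, and 8.08-fold lower in all in DP against HSC (adjusted p = 2.29e-05 from limma). Gusb, the glucuronidase, read 11.12 and 10.86 in HSC, 10.52 and 10.19 in ProT, and 8.79 and 8.70 in DP, and Gaa, the glycogen-degrading glucosidase lost in Pompe disease, 10.78 and 10.67, then 10.34 and 10.05, then 8.74 and 8.76. In both the larger step came in DP against ProT, at -1.61 ± 0.14 for Gusb and -1.45 ± 0.11 for Gaa, with smaller falls in ProT against HSC of -0.64 ± 0.14 and -0.53 ± 0.11.

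Hexa, the hexosaminidase subunit of Tay-Sachs disease, took its larger step earlier. It had 11.55 and 11.37 in HSC, 10.24 and 9.97 in ProT, and 9.49 and 9.45 in DP, with changes of -1.35 ± 0.12 in ProT against HSC and -0.64 ± 0.12 in DP against ProT. Neu1, the sialidase, read 10.02 and 9.88 in HSC, 8.89 and 8.63 in ProT, and 8.86 and 8.91 in DP, a change of -1.19 ± 0.11 in ProT against HSC and 0.12 ± 0.11 in DP against ProT, which did not pass. Naglu and Idua, of heparan sulfate breakdown, were 2.82-fold and 2.24-fold lower in DP against HSC. Man2b1, the mannosidase, changed by -0.52 ± 0.09 and Glb1, the galactosidase, by -0.47 ± 0.17, which did not pass (adjusted p = 0.0829).

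The sulfatases Sgsh and Ids, which act on the same heparan sulfate, moved in opposite directions in DP against ProT and in DP against HSC. Sgsh was highest in ProT, with 8.91 and 9.05 in HSC, 10.16 and 9.93 in ProT, and 8.40 and 8.43 in DP. No arrays overlapped between populations, and the change was 1.07 ± 0.10 in ProT against HSC (adjusted p = 0.00175 from limma) and -1.63 ± 0.10 in DP against ProT (adjusted p = 0.000178). Ids was highest in DP, at 8.32 and 8.54 in HSC, 8.50 and 8.73 in ProT, and 9.54 and 9.47 in DP, and it was the sole glycan enzyme gene of the 11 that rose in DP against HSC (2.12-fold, adjusted p = 0.000948). Its HSC and ProT arrays overlapped.

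The lipid-handling genes divided by gene. Of 6, 1 rose and 4 fell in ProT against HSC, 3 rose and 2 fell in DP against ProT, and 2 rose and 1 fell in DP against HSC. The shares called were 83.3%, 83.3% and 50%, beside 14.7%, 32.6% and 34.9% of all genes and 23.7%, 52.2% and 56.3% of the bright genes. In DP against HSC the share lies below that of the bright genes. Lipa, the acid lipase that frees cholesterol and fatty acids, had 11.05 and 10.91 in HSC, 10.02 and 10.08 in ProT, and 12.46 and 12.46 in DP. ProT arrays were lowest and DP arrays highest, with a fall of 1.90-fold in ProT against HSC (log2 change -0.93 ± 0.08, adjusted p = 0.00115 from limma) and a rise of 5.31-fold in DP against ProT (2.41 ± 0.08, adjusted p = 1.89e-05). Ppt1, which removes fatty acids from proteins, followed the same order at a smaller size: 11.54 and 11.60 in HSC, 11.16 and 11.23 in ProT, and 12.36 and 12.42 in DP, with a rise of 1.20 ± 0.07 in DP against ProT. Psap, the precursor of the saposins that help sphingolipid enzymes, was at 12.71 and 12.80, then 12.46 and 12.42, then 13.00 and 12.95, a rise of 0.53 ± 0.07 in DP against ProT (adjusted p = 0.00321).

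Asah1, the acid ceramidase, ran against them. Its arrays read 11.67 and 12.03 in HSC, 11.08 and 11.21 in ProT, and 9.19 and 9.08 in DP. DP lay 4.02-fold below ProT (log2 change -2.01 ± 0.13, adjusted p = 0.000198 from limma) and 6.55-fold below HSC. Smpd1, the acid sphingomyelinase whose product is ceramide, was highest in ProT at 11.47 and 11.88, against 10.78 and 11.09 in HSC, and read 10.74 and 10.67 in DP. It rose by 0.74 ± 0.17 in ProT against HSC (adjusted p = 0.0373) and fell in DP against ProT (-0.97 ± 0.17), and the first of these calls was lost with median centring (adjusted p = 0.0553), with only the populations compared (0.112), and without HSC replicate 1, ProT replicate 2 or either DP replicate (0.0905 to 0.112).

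Markers of macrophages were measured beside the DP rises of Lipa, Ctsl, Ppt1, Scarb2, Ids and Npc1. C1qb, a complement gene typical of tissue macrophages, read 9.56 and 9.37 in DP, against 6.60 and 6.07 in ProT. C1qc, its partner, read 8.17 and 8.26 in DP, against 5.98 and 5.83 in ProT. Other defining markers were dim in DP: Csf1r was at 7.28 and 7.16, Adgre1 at 7.10 and 7.13, against 11.02 and 11.18 in ProT, and Vsig4, Cd163 and Marco lay below 7.17 in all arrays. Of the 12 macrophage and monocyte markers 5 rose and 1 fell in DP against ProT, or 41.7% and 8.33%, beside 14.5% and 18.1% of all genes. The fall was that of Adgre1. Besides C1qb and C1qc, the rises were those of C1qa (0.91 ± 0.09), Mertk (0.62 ± 0.14) and Mrc1 (0.43 ± 0.09). Mertk and Mrc1 had DP means below 7.17. The 7 stromal and epithelial markers averaged 8.14 and 8.20 in DP, 8.07 and 7.97 in ProT and 7.52 and 7.37 in HSC, and 3 rose and 1 fell in DP against ProT, with 4 higher and 0 lower in DP against HSC. Krt8, an epithelial keratin, read 9.51 and 9.55 in DP, against 7.47 and 7.34 in ProT (log2 change 2.13 ± 0.08), and Krt5 and Col3a1 rose by 0.78 ± 0.12 and 0.34 ± 0.08. Epcam, an epithelial adhesion protein, fell in DP against ProT (-2.60 ± 0.09). The 9 dendritic cell markers averaged 7.39 and 7.44 in DP, 7.81 and 7.59 in ProT and 6.03 and 6.05 in HSC. Of these, 2 rose and 2 fell in DP against ProT, and 7 rose and 0 fell in DP against HSC, among them the antigen presentation genes H2-Aa (10.68 and 10.59 in DP, against 5.80 and 5.40 in HSC) and Cd74 (10.69 and 10.64 in DP, against 6.64 and 7.35 in HSC). Both were already high in ProT, H2-Aa at 11.33 and 11.01 and Cd74 at 11.43 and 11.05. Their changes in DP against ProT, -0.53 and -0.58, did not pass. All 5 measured B cell markers rose in DP against ProT, with list averages of 7.29 and 7.27 in DP, against 6.27 and 6.18 in ProT, and 4 of the 5 had a DP mean below 7.17. The stromal, dendritic and B cell counts stand beside 14.5% higher and 18.1% lower of all genes in DP against ProT. In DP against HSC these shares were 16% and 18.8%. The part of macrophages and of these other cells in the rises of Lipa, Ctsl, Ppt1, Scarb2, Ids and Npc1 was not tested.

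ProT was also set against the midpoint of HSC and DP, which asks whether a gene lies off the straight path between the other 2 populations. Of the 38 genes, 9 lay above the midpoint and 10 below it, and 19 did not pass; of all genes 21% were called, 11.8% above and 9.17% below, and of the genes bright in at least 2 arrays 33.7%, 19.6% above and 14.1% below. Those above were Cd63 (2.80 ± 0.40), Sgsh (1.35 ± 0.09), Smpd1, Ctsc, Cd68, Asah1, Tfe3, Gusb and Gaa. Those below were Ctse (-2.93 ± 0.26, adjusted p = 0.0011 from limma), Lipa (-1.67 ± 0.07, adjusted p = 6.92e-05), Ctsh, Ctsl, Ppt1, Scarb2, Neu1, Ctsb, Psap and Lamp2. Without DP replicate 1 or DP replicate 2 the number above was 3, and without ProT replicate 1 it was 5. The calls of Cd63, Cd68 and Sgsh held without any single array, as did those of Scarb2, Ctse, Ctsh, Ctsl, Neu1, Lipa, Psap and Ppt1.

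**Figure D4:**
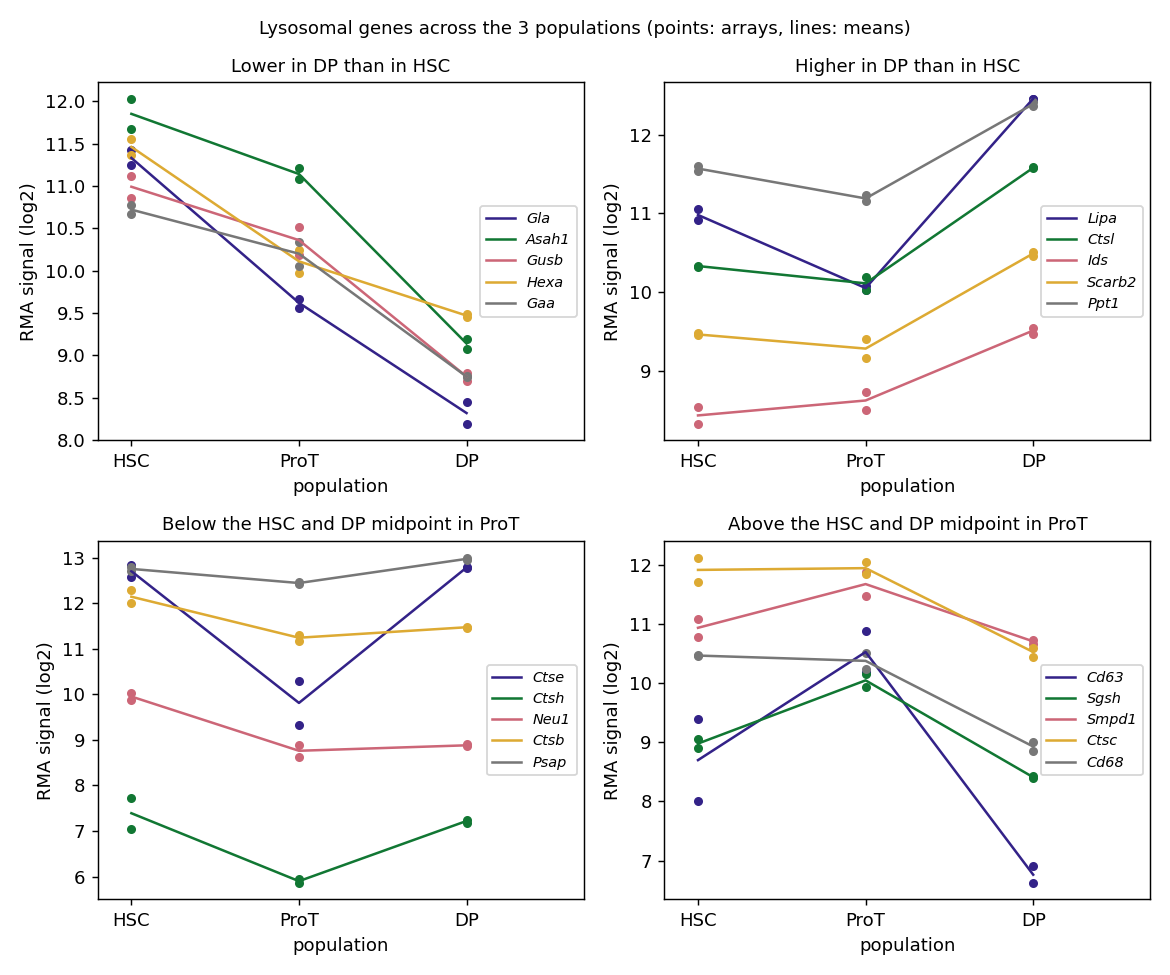
RMA signal (log2, y axes) of 20 lysosomal genes in HSC, ProT and DP (x axes), with points for the arrays and lines through the means. The genes were picked after their values were seen, 5 for each pattern: lower in DP than in HSC, higher in DP than in HSC, and below or above the HSC and DP midpoint in ProT. Gla falls at both steps, Lipa dips in ProT and reaches 12.46 in DP, Ctse drops to 10.30 and 9.32 in ProT, and Cd63 peaks there at 10.88 and 10.19.

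Further hydrolases of the lysosome, outside the 38, were mostly lower in DP. Of 21 measured genes of that list, 3 rose and 7 fell in ProT against HSC, 2 rose and 15 fell in DP against ProT (median log2 change -0.85), and 3 rose and 13 fell in DP against HSC (median -1.01). The shares called were 47.6%, 81% and 76.2%, beside 14.7%, 32.6% and 34.9% of all genes and 23.7%, 52.2% and 56.3% of the bright genes. The largest falls in DP against ProT were those of Scpep1, a carboxypeptidase (at least 14.7-fold, its DP mean being below 7.17), Dnase2a, the acid nuclease (-2.38 ± 0.19), and Arsb, a sulfatase of dermatan sulfate (-2.21 ± 0.21). Acp5, the tartrate-resistant acid phosphatase, rose at both steps and stood at 11.42 and 11.34 in DP against 7.14 and 7.19 in HSC (at least 18.5-fold, adjusted p = 4.33e-06 from limma). Ctsw, a cathepsin of cytotoxic lymphocytes, rose at least 12.7-fold in ProT against HSC, where its HSC mean lay below 7.17, and Gm2a, the activator of hexosaminidase, rose by 0.29 ± 0.07 on the log2 scale. In the same comparison Galc, the galactosylceramidase, Arsb and Pla2g15, a phospholipase, changed by -1.61 ± 0.23, -1.38 ± 0.21 and -0.96 ± 0.14. In DP against ProT Ctsk rose by 0.34 ± 0.08 below 7.17, and in DP against HSC Ctso by 0.69 ± 0.12.

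The other membrane proteins and transporters had more rises than falls in DP. Of 21 measured, 1 rose and 1 fell in ProT against HSC, 7 rose and 3 fell in DP against ProT, and 9 rose and 3 fell in DP against HSC (median log2 change 0.25). The shares called, 9.52%, 47.6% and 57.1%, lie below or near those of the bright genes (23.7%, 52.2% and 56.3%), beside 14.7%, 32.6% and 34.9% of all genes. Rises made up 33.3% in DP against ProT and 42.9% in DP against HSC, beside 21.2% and 23.8% of the bright genes. Mcoln3, a relative of Mcoln1, rose at least 6.02-fold in DP against ProT (adjusted p = 1.54e-05 from limma) to 9.04 and 8.93, against 6.41 and 6.37 in ProT. Slc38a9, the arginine sensor of the membrane, and Ostm1, the partner of its chloride transporter, rose by 1.33 ± 0.10 and 1.04 ± 0.12 in the same comparison. Mcoln2 peaked in ProT, with 1.18 ± 0.13 in ProT against HSC and -1.25 ± 0.13 in DP against ProT. Falls in DP against ProT included Tmem192 (-0.64 ± 0.10) and Cln3 (-0.42 ± 0.09), and Slc15a3 fell at least 2.17-fold in DP against HSC. Slc17a5, the sialic acid exporter gene, changed by -0.38 ± 0.07 in ProT against HSC, by 0.76 ± 0.07 in DP against ProT and by 0.38 ± 0.07 in DP against HSC, all called.

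Of 19 measured subunits of the proton pump, 1 rose and 5 fell in ProT against HSC, 1 rose and 7 fell in DP against ProT, and 2 rose and 9 fell in DP against HSC (median log2 change -0.30). The shares called, 31.6%, 42.1% and 57.9%, stand beside 23.7%, 52.2% and 56.3% of the bright genes, and that in DP against ProT is below theirs. The isoforms of the membrane subunit a moved apart. Atp6v0a1 fell to 7.46 and 7.25 in DP, against 9.74 and 10 in HSC (-2.51 ± 0.12, adjusted p = 4.43e-05 from limma), while Atp6v0a2 rose by 0.88 ± 0.09 in the same comparison, to 11.44 and 11.40 in DP against 10.50 and 10.58 in HSC. Tcirg1, the isoform of osteoclasts and other immune cells, fell by 1.13 on the log2 scale in DP against HSC, and the catalytic subunit Atp6v1a by 1.26. Atp6ap2, an accessory protein, changed by -1.24 ± 0.26 in ProT against HSC, Atp6v1f by -0.48 ± 0.08 in DP against ProT, and Atp6v0d2 by 0.74 ± 0.13 in DP against HSC at signals below 7.17.

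Receptors that sort lysosomal enzymes went opposite ways between HSC and the later stages. Igf2r, the large receptor for mannose 6-phosphate, was at 6.18 and 5.96 in HSC, 9.81 and 9.86 in ProT, and 9.91 and 9.84 in DP. HSC lay apart from the other populations, which overlapped, and the rise was at least 13.6-fold in ProT against HSC (log2 change 3.76 ± 0.10, adjusted p = 1.19e-05 from limma). Sort1, sortilin, which carries enzymes without that tag, showed the reverse, at 10.80 and 11.25 in HSC, 8.31 and 8.27 in ProT, and 8.27 and 8.16 in DP, a fall of 6.67-fold in ProT against HSC. Gnptab, the enzyme that makes the tag, fell at each step, with a log2 change of -1.57 ± 0.08 in DP against HSC, and Gnptg, its other subunit, rose by 0.60 ± 0.11 in that comparison. Nagpa, which uncovers the tag, fell in ProT against HSC (-0.84 ± 0.16), and the adaptor Gga2 in DP against ProT (-1.07 ± 0.09). Of the 9 sorting genes measured, 1 rose and 3 fell in ProT against HSC, 0 rose and 2 fell in DP against ProT, and 2 rose and 5 fell in DP against HSC. The shares called were 44.4%, 22.2% and 77.8%, beside 14.7%, 32.6% and 34.9% of all genes and 23.7%, 52.2% and 56.3% of the bright genes. In DP against ProT the share lies below both.

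Genes of nutrient sensing and of autophagy, the delivery of cell contents to the lysosome, were called at shares below those of the bright genes (23.7%, 52.2% and 56.3%). Of 21 nutrient sensing genes 1 rose and 3 fell in ProT against HSC, 2 rose and 3 fell in DP against ProT, and 3 rose and 5 fell in DP against HSC, or 19%, 23.8% and 38.1% called, beside 14.7%, 32.6% and 34.9% of all genes. Rragd, a Rag GTPase of the lysosomal surface, rose at both steps (at least 1.96-fold and then 2.94-fold), and Fnip2, a partner of folliculin, fell at both (1.76-fold and then at least 2.67-fold). Rragb, another Rag GTPase, fell at least 1.94-fold in ProT against HSC and rose in DP against ProT (adjusted p = 0.00718 from limma), where Akt1s1 (-0.52 ± 0.10) and Rragc (-0.41 ± 0.10) fell. In DP against HSC Rptor (0.40 ± 0.11) and Rraga (0.36 ± 0.09) rose and Lamtor4 fell (-0.98 ± 0.17).

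Of 29 autophagy and fusion genes 3 rose and 2 fell in ProT against HSC, 5 rose and 4 fell in DP against ProT, and 5 rose and 6 fell in DP against HSC, or 17.2%, 31% and 37.9% called, beside the same shares of all genes (14.7%, 32.6% and 34.9%). The related genes Gabarapl1 and Gabarapl2, whose products coat autophagosomes, went opposite ways in DP against HSC, at -1.98 ± 0.12 and 1.0 ± 0.12. Wipi1, an early autophagy protein, fell at least 5.18-fold in DP against ProT, its DP mean being below 7.17, and Atg7 changed by -0.90 ± 0.11 on the log2 scale. Rises in that comparison were those of Rb1cc1 (2.26 ± 0.42, with ProT arrays 6.98 and 8.39), Uvrag (0.70 ± 0.12) and Atg16l1 (0.50 ± 0.09). In ProT against HSC Sqstm1, the cargo receptor, rose by 0.58 ± 0.11 and Map1lc3a by 0.56 ± 0.08, while Atg12 (-1.09 ± 0.26) and Atg9a (-0.39 ± 0.08) fell.

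All 5 measured cystatins, inhibitors of cysteine cathepsins, were lower in DP than in HSC, beside 18.8% of all genes and 32.5% of the bright genes. Cst7, which inhibits the activator protease Ctsc in cytotoxic cells, was at 12.21 and 12.21 in HSC, 12.16 and 12.21 in ProT, and 8.55 and 8.30 in DP, so its fall came in DP against ProT (-3.77 ± 0.10, adjusted p = 1.1e-05 from limma). Ctsc itself fell in that comparison too, as given above. Cstb, a cytosolic inhibitor, changed by -0.59 ± 0.11 in DP against ProT. Stfa2 and Stfa3, of a cluster of near-identical genes whose probes may not tell them apart, fell in ProT against HSC (at least 10.9-fold and at least 8.74-fold), with HSC arrays 7.37 and 8.67 for Stfa2. These are neutrophil-lineage genes in the mouse, and the granulocyte markers fell alongside. All 10 were called lower in ProT against HSC, beside 6.9% of all genes. The part of granulocyte-lineage cells in the falls of Stfa2 and Stfa3 was not tested.

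**Figure D5:**
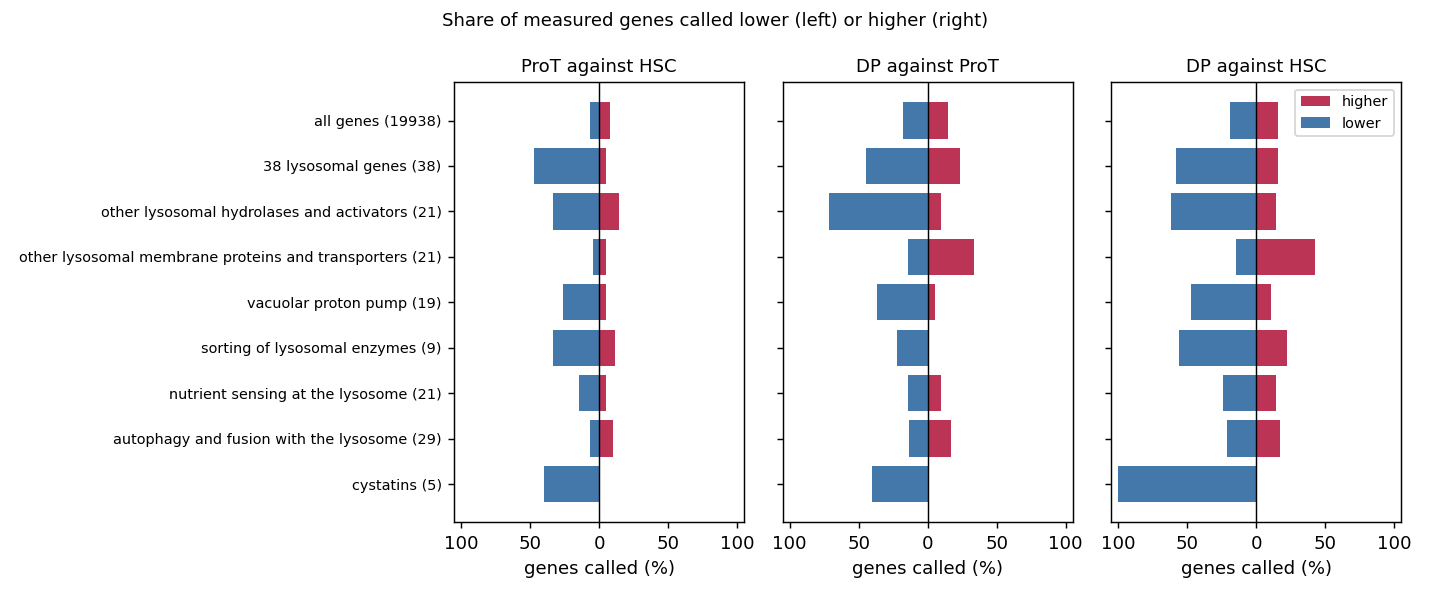
Share of measured genes (x axes, percent) called lower (bars to the left) or higher (bars to the right) in each comparison, for all genes, the 38 lysosomal genes and 7 lists of related genes, with the number measured in brackets. In DP against HSC the bars of the 38 genes are 57.9% lower and 15.8% higher, those of all genes 18.8% and 16%, and those of the other membrane proteins and transporters 14.3% and 42.9%.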

How the data were processed

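Per the labels' protocols, total RNA from 6 samples was labelled with biotin for Affymetrix arrays. The authors deposited log2 signals of 35556 probe sets per array, and the submitters' processing notes name RMA and Partek without versions or settings; the genome build is not given in the sources used here. Scanner files were not used here. GEO's platform annotation linked 21789 probe sets to 1 gene (19938 genes) and 1621 to several, which were left out. The highest-mean probe set stood for a gene, and no signal filter was applied.

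All arrays entered 1 limma 3.58.1 fit (R 4.3.3, eBayes, residual degrees of freedom 3, prior 2.83) with a mean per population. P-values were adjusted over all genes by Benjamini-Hochberg and called under 0.05. Changes with ± give the standard error from limma. The deposited log2 values carry no detection calls, so 7.17, the median of all gene values, served as a level of caution, and with a lower mean under it folds are given as at least their measured size. The fit was tested on simulated data. The number of arrays limits the precision.

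The members and the lists of related and marker genes were chosen with earlier results of these data known. Every member is named. From each related list the up to 3 largest called rises and falls per comparison could be named, markers as members of their lists. Some genes of these lists were not analysed here. Promoters came from RefSeq (GRCm38.p6), searched in Python 3.11.15. Alternatives were leaving out each array, stricter thresholds, a replicate block, centring arrays on their medians, quantile normalization, other choices of probe set or prior, leaving out dim genes, and fitting only 2 populations at a time.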

Additional observations from a re-analysis of the deposited data

How the results depend on the processing

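The samples share replicate numbers, but the deviations of same-numbered arrays from their population means correlated at only 0.058, -0.022 and -0.043 between pairs of populations, so the numbers were not taken to pair the samples. With the number as a replicate block, 3 of the 38 genes were higher and 16 lower in ProT against HSC, 9 and 17 in DP against ProT, 6 and 22 in DP against HSC, and 10 and 11 against the midpoint. Higher counts in ProT against HSC were 1 with an adjusted p below 0.01, with a 2-fold minimum, with median centring and with only the populations compared. Lower counts there were 10 at 0.01, 6 with the 2-fold minimum and 10 with only the populations compared. With the 2-fold minimum 10 genes were lower in DP against ProT, and 2 above and 3 below the midpoint, where 3 were above at 0.01. Calls over all genes numbered 1535 at 0.01, 1230 with the 2-fold minimum and 1792 with only the populations compared in ProT against HSC (2940 as reported), 4041 and 2299 at the first 2 of these in DP against ProT (6506), 2748 with the 2-fold minimum in DP against HSC (6953), and 2001 and 1155 against the midpoint (4187). Leaving out 1 array at a time, ProT against HSC had 1 to 3 higher, 10 to 18 lower and 1792 to 3982 genes called in all. DP against ProT had 7 to 9, 9 to 18 and 3531 to 7408, DP against HSC 6 to 6, 14 to 22 and 4301 to 6934, and the midpoint 3 to 11, 8 to 13 and 2059 to 5233. A population left with 1 array was assumed to vary like the others. Median centring moved the share of higher genes among all calls to 42% in ProT against HSC (1321 higher, 1821 lower, against 1565 and 1375 as deposited), to 60.2% in DP against ProT (4522 and 2987, against 2899 and 3607) and to 38.4% against the midpoint (1864 and 2996, against 2359 and 1828).

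Of 2394 values of single genes under an alternative, 2136 kept direction and call, 200 lost the call, 34 gained it and 24 changed sign, none of these 24 a called value. With quantile normalization, the values were Ctsd 0.03 (DP/ProT) and Mcoln1 0.03 (DP/HSC). With median centring, the values were Ctsc -0.05 (ProT/HSC), Lgmn -0.01 (ProT/HSC), Ctsd 0.09 (DP/ProT), Npc2 0.03 (DP/ProT), Mcoln1 0.02 (DP/HSC) and Man2b1 -0.0033 (midpoint). With 1 array left out, the changes ranged over -0.22 to 0.04 for Cd68 (ProT/HSC), -0.18 to 0.24 for Ctsc (ProT/HSC), -0.08 to 0.02 for Ctsd (DP/ProT), -0.08 to 0.02 for Ctsd (midpoint), -0.04 to 0.2 for Ctse (DP/HSC), -0.52 to 0.16 for Ctsh (DP/HSC), -0.18 to 0.23 for Ctss (DP/ProT), -0.009 to 0.15 for Lgmn (ProT/HSC), -0.12 to 0.09 for Mcoln1 (DP/HSC), -0.0016 to 0.25 for Neu1 (DP/ProT), -0.02 to 0.0086 for Npc2 (midpoint) and -0.39 to 0.03 for Tfe3 (ProT/HSC). The causes of these changes were not tested. Signals below 7.17 limit what can be said of Mitf and Cd63 in DP and of Ctsh in ProT.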
